A study of Mus musculus with 6 samples.

Results

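Macrophages read antibody-coated targets through Fc receptors, and 9 genes of this system were followed here: the receptors FCGR1A, FCGR2A, FCGR2B, FCGR3A, FCGRT and FCAR, the adaptors FCER1G and TYROBP, and the kinase SYK. They were taken by name from a deposited table of 20036 genes, and all 9 were found. RNA was sequenced from macrophages made from THP-1, a human line from an acute monocytic leukaemia that the phorbol ester PMA turns into adherent macrophage-like cells. The series compared 3 libraries labelled NC with 3 labelled Melittin, named after the main lytic peptide of bee venom. PMA was given at 100 ng/ml for 48 h to THP-1 cells under a Transwell membrane, after which tumour cells above the membrane shared their medium, with melittin at 3 µg/ml, for another 48 h. The labels do not spell out NC, and do not say whether the NC wells held tumour cells, so co-culture and melittin cannot be told apart as the source of a difference. THP-1 is 1 leukaemia line, and no label says that the libraries came from separate cultures. All p-values therefore speak only of how these libraries scatter, and that scatter may be technical. The organism label reads mouse, but all 20036 gene identifiers are human and the values are read as human expression.

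Fc receptors bind the constant part of antibodies. Activating receptors signal through a tyrosine motif called ITAM, which lies in the receptor itself (FCGR2A) or in a partner chain (FCER1G for FCGR1A, FCGR3A and FCAR). SRC family kinases phosphorylate the motif, SYK docks on it, and engulfment, oxidant release and cytokine production follow, while FCGR2B carries an inhibitory motif, ITIM, that recruits the lipid phosphatase INPP5D. TYROBP, also called DAP12, is a further ITAM adaptor that serves receptors such as TREM1 and TREM2. FCGRT, the neonatal Fc receptor, is built like a class I molecule with B2M as its light chain and returns IgG and albumin from endosomes to the cell surface.

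Total counts were 16001423 to 19597781 per library. Defining macrophage genes were present, with a summed level over 12 markers of 2177 to 2195 CPM in NC and 2001 to 2043 CPM with melittin (CPM are counts relative to the library total, here scaled with TMM factors, which offset differences in RNA composition), although CD68 had 1 count in all. Behind these sums 4 of the 11 tested macrophage markers rose and 5 fell: CSF1R went from 722.2 to 235.1, CD163 from 76.5 to 9.89 and CD14 from 173.4 to 81.2 CPM, while ITGAX went from 417.0 to 778.3 and CEBPB from 163.7 to 300.6 CPM. Of 12 epithelial markers, EPCAM, KRT5, KRT18, KRT19, KLK2 and TMPRSS2 were at 0 in every library, and the summed level of the list was 66.0 to 69.9 CPM in NC and 93.3 to 105.2 CPM with melittin. Of 12 lymphoid markers, CD3D and MS4A1 were at 0, and the sum was 92.2 to 93.7 CPM in NC and 389.8 to 400.2 CPM with melittin, nearly all of it from NCAM1 and GNLY. Of 12 granulocyte markers, CXCR1, CEACAM8 and CPA3 were at 0, and the sum was 3.11 to 4.04 CPM in NC and 10.5 to 11.3 CPM with melittin. The part of these cell types in the values below was not tested. In bulk RNA, fewer cells of a type and less RNA per cell cannot be told apart.

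With melittin FCGR2A rose 11.7-fold, FCAR and FCGR2B rose, FCGR1A fell, and SYK fell by 0.66 on the log2 scale. The adaptors FCER1G and TYROBP, the most abundant members once counts are divided by gene length, moved by little. The sign of the FCER1G change depended on the scaling of the libraries, and TYROBP was near 0 in 1 scaling and turned only when a trend on gene length was removed. FCGR3A was near 0 in both groups. Of the 8 members with enough counts to be tested, 5 passed as higher and 3 as lower at an adjusted p of 0.05 (edgeR quasi-likelihood test, adjusted over 12029 genes), in a comparison where 38.1% of all tested genes passed as higher and 38.3% as lower. Since 76.4% of all tested genes passed in either direction, the 8 of 8 is not read as a result about the members. The groups did not overlap for 7 of the 8, as for 77.4% of tested genes. Against a fold change of 1.5, FCGR2A, FCAR, FCGR2B and FCGR1A passed, as did 29.1% of tested genes. At least 2-fold higher were FCGR2A and FCAR, where 9.53% of tested genes were, and 0 members were at least 2-fold lower, where 9.96% of tested genes were. The median log2 fold change of the 8 members was 0.17, beside −0.01 over all tested genes. Under plain total scaling, which uses library totals without TMM factors, 3 members passed as higher and 4 as lower, where 26.3% of tested genes passed as higher and 51.9% as lower. The medians were then −0.07 and −0.24.

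**Figure D1:**
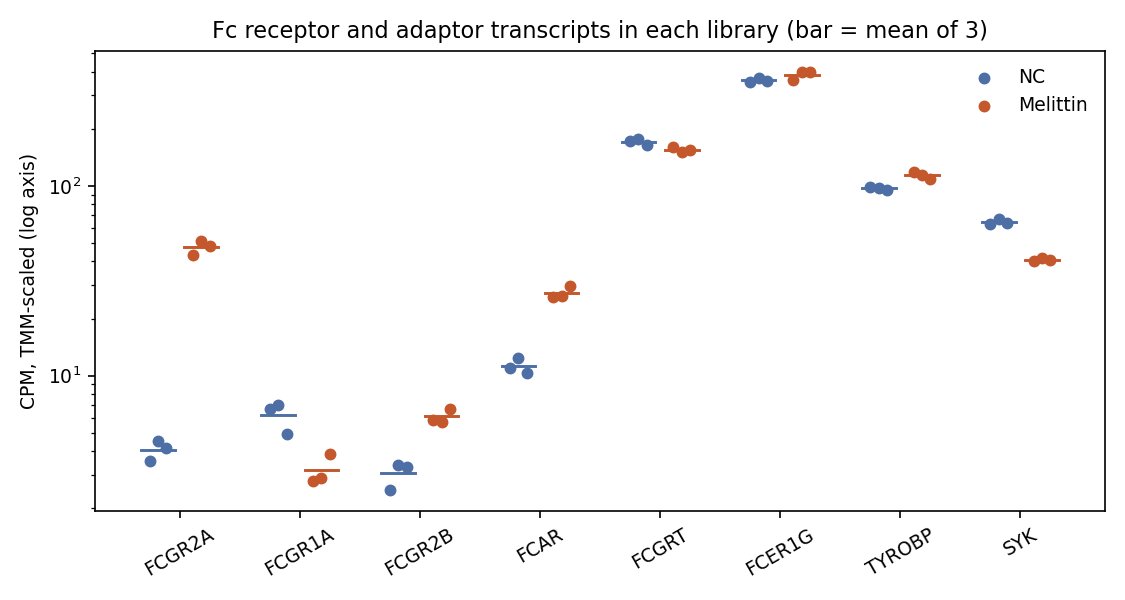
CPM of the 8 tested members in each library on a log axis, with NC in blue, melittin in orange and a bar at the mean of 3 libraries. FCGR2A runs from 3.54 to 4.52 CPM in NC and from 43.1 to 51.5 CPM with melittin, while the FCER1G groups overlap.

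FCGR2A, the activating receptor with an ITAM in its own tail (ENSG00000143226, chromosome 1, 161505430 to 161524013, plus strand, GRCh38), was at 3.54, 4.52 and 4.16 CPM in NC replicates 1, 2 and 3. It was at 43.1, 51.5 and 48.1 CPM in melittin replicates 1, 2 and 3. Every melittin library lay far above every NC library. The means were 4.07 ± 0.495 and 47.6 ± 4.21 CPM (SD, n = 3). The log2 fold change was 3.54 (SE 0.0983, 95% interval 3.34 to 3.75, edgeR adjusted p = 4.01e-22). Of the 12029 tested genes, 53 had a larger rise than FCGR2A. The rise rests on 240 counts in NC and 2305 with melittin.

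FCGR2B, the inhibitory receptor with an ITIM (ENSG00000072694, chromosome 1, 161663143 to 161678654, plus strand), was low in both groups, at 2.51, 3.39 and 3.29 CPM in NC and 5.85, 5.73 and 6.70 CPM with melittin. The groups did not overlap, and the log2 fold change was 0.99 (SE 0.166, 95% interval 0.65 to 1.33, edgeR adjusted p = 5.58e-06). On log2(FPKM + 1), a scale that shrinks the change of low genes, it was 0.30. FCGR2A, FCGR2B and FCGR2C are near-identical over parts of their sequence, so the split of reads between them is uncertain. FCGR2C had 4, 8 and 3 counts in NC and 4, 9 and 10 with melittin and was not tested. Summed over the 3 genes, the log2 fold change was 2.87.

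The balance of FCGR2A and FCGR2B, an activating and the inhibitory IgG receptor, was compared within each library in FPKM, which are counts divided by gene length and library total. A ratio within a library does not depend on the scaling between libraries. The ratio of FCGR2A to FCGR2B was 1.73, 1.64 and 1.55 in NC and 9.04, 11.02 and 8.80 with melittin. Every melittin library was above every NC library, by 5.84-fold on average. An exact two-sided permutation test of the log2 ratio gave p = 0.1, the smallest that 3 libraries against 3 allow.

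FCGR1A, the high-affinity IgG receptor (ENSG00000150337, chromosome 1, 149782671 to 149791675, plus strand), was at 6.69, 7.02 and 4.91 CPM in NC and 2.80, 2.89 and 3.89 CPM with melittin. NC replicate 3 was the lowest of its group and melittin replicate 3 the highest of its own, and the groups did not overlap. The log2 fold change was −0.98 (SE 0.175, 95% interval −1.34 to −0.62, edgeR adjusted p = 1.49e-05). FCGR1A and FCGR2A, both activating IgG receptors, thus changed in opposite directions. H2BC18 covers 8987 bases of FCGR1A on the opposite strand and had 97 counts over the 6 libraries, against 370 counts of FCGR1A in NC and 153 with melittin. The strand setting of the counting is not given in the sources used here, so reads of the pair cannot be told apart. Near-identical copies of FCGR1A were not analysed here.

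FCGR3A, the IgG receptor of natural killer cells and some monocytes (ENSG00000203747, chromosome 1, 161541759 to 161550968, minus strand), had 1, 1 and 0 counts in NC and 1, 2 and 1 with melittin. Its near-identical copy FCGR3B, a granulocyte receptor, had 0 counts in NC and 2 in melittin replicate 3. Neither gene had enough counts for a test, so a difference could not have been seen at such depth. An unnamed gene at 0 counts overlaps 6162 bases of FCGR3A on the same strand, and whether reads in the overlap were left out was not tested.

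FCAR, the IgA receptor of myeloid cells (ENSG00000186431, chromosome 19, 54874235 to 54891420, plus strand), was at 10.9, 12.4 and 10.3 CPM in NC and 26.1, 26.4 and 29.8 CPM with melittin. All 3 melittin libraries were more than 2-fold above all 3 NC libraries. The log2 fold change was 1.28 (SE 0.0881, 95% interval 1.10 to 1.46, edgeR adjusted p = 2.97e-13).

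FCGRT, which encodes the neonatal Fc receptor (ENSG00000104870, chromosome 19, 49506816 to 49526428, plus strand), was at 172.7, 176.2 and 164.9 CPM in NC and 159.8, 150.3 and 155.1 CPM with melittin. The groups did not overlap but lay close, with a log2 fold change of −0.15 (SE 0.0331, edgeR adjusted p = 0.000289) that was −0.38 under plain total scaling and did not pass against a fold change of 1.5. Its light chain B2M rose from 5317 ± 50.6 to 7489 ± 384 CPM (SD, n = 3). Receptor and light chain thus moved in opposite directions, in FPKM too, where FCGRT went from 45.8 to 35.3 and B2M from 1845 to 2214.

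**Figure D2:**
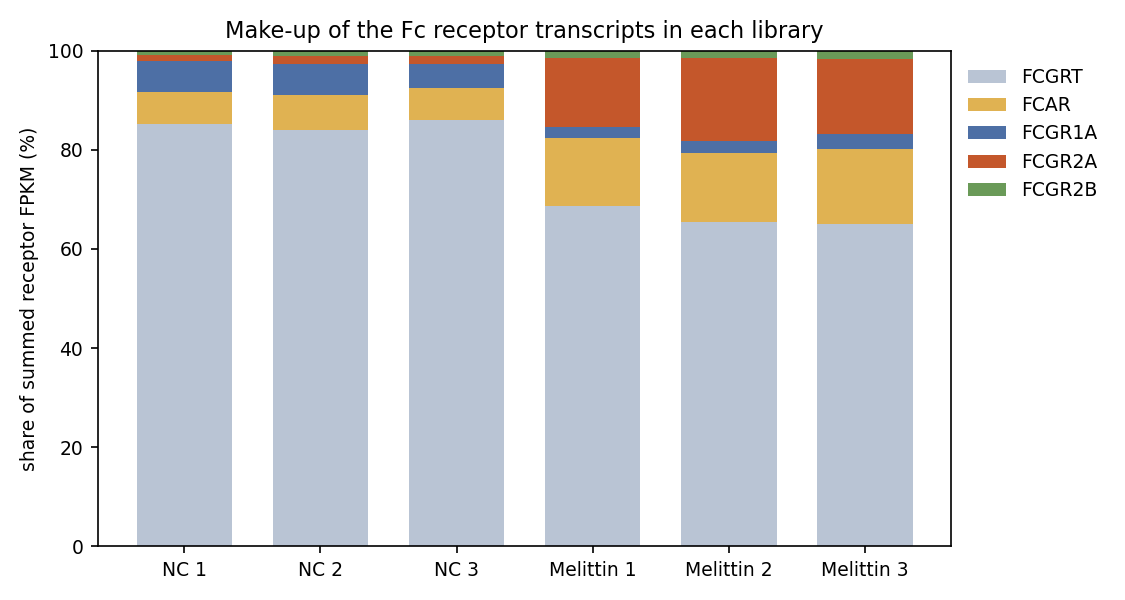
Share of each receptor in the summed FPKM of the 6 Fc receptors, 1 bar per library; FCGR3A, under 0.04% in every library, is not drawn. FCGRT fills 83.9 to 86.0% of the NC bars and 65.0 to 68.7% of the melittin bars, and FCGR2A grows from under 2% to between 13.8 and 16.7%.

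Set against each other per gene length, on a scale that follows library totals, the 6 receptors summed to 54.2, 56.1 and 51.2 FPKM in NC and 53.2, 52.2 and 54.3 FPKM with melittin, and the groups overlapped. Dividing by TMM factors, 1.08 in NC and 0.921 to 0.927 with melittin, would raise the melittin sums and lower the NC sums. The overlap is therefore tied to library totals. With these factors every melittin sum would lie above every NC sum, a difference that was not tested. Within the sum of the 6 receptors the make-up differed. FCGRT held 85.0 ± 1.04% of the receptor FPKM in NC and 66.3 ± 2.02% with melittin (SD, n = 3), and FCGR2A held 1.51 ± 0.179% and 15.2 ± 1.45%. FCAR held 6.76 ± 0.370% and 14.3 ± 0.797%, and FCGR1A held 5.77 ± 0.826% and 2.56 ± 0.436%. Each of these 4 shares separated the groups without overlap (exact two-sided permutation p = 0.1, the smallest possible, for each). The shares of a library add up to the whole, so the 4 separations are not independent of each other. Larger shares of FCGR2A and FCAR lower that of FCGRT, whose own log2 fold change was −0.15 on the TMM scale. Without FCGRT, which works mainly inside the cell, the other 5 receptors summed to 8.08 ± 0.927 FPKM in NC and 17.9 ± 1.18 FPKM with melittin.

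FCER1G, the common Fc receptor gamma chain (ENSG00000158869, chromosome 1, 161215234 to 161220699, plus strand), was at 352.8, 372.5 and 359.2 CPM in NC and 360.9, 397.7 and 400.5 CPM with melittin. The groups overlapped, since melittin replicate 1 lay between NC replicates 3 and 2. The log2 fold change was 0.10 (SE 0.0321, 95% interval 0.03 to 0.16, edgeR adjusted p = 0.00868), and it was −0.14 under plain total scaling (edgeR adjusted p = 0.000339) and −0.26 once the trend of fold changes on gene length over all genes was taken out. The call ended without NC replicate 1 (edgeR adjusted p = 0.0712), melittin replicate 2 (0.0636) or melittin replicate 3 (0.0579). FCER1G thus has no direction that held across the scalings, and its change was under 1.5-fold in each of them.

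TYROBP, the adaptor DAP12 (ENSG00000011600, chromosome 19, 35904401 to 35908295, minus strand), was at 98.5, 97.0 and 95.7 CPM in NC and 119.2, 114.5 and 108.9 CPM with melittin. The groups did not overlap on this scale, with a log2 fold change of 0.23 (SE 0.0379, edgeR adjusted p = 3.39e-06). Under plain total scaling it was 0.003 (edgeR adjusted p = 0.941), and −0.14 once the length trend was removed. FCER1G and TYROBP are short, at 964 and 907 bases, and the other members are 2155 to 6655 bases long. The ratio of TYROBP to FCER1G in FPKM was 0.297, 0.277 and 0.283 in NC and 0.351, 0.306 and 0.289 with melittin, and the groups overlapped (exact two-sided permutation p = 0.2).

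SYK, the kinase that docks on phosphorylated ITAMs (ENSG00000165025, chromosome 9, 90801787 to 90898549, plus strand), was at 63.1, 67.0 and 63.9 CPM in NC and 40.1, 41.8 and 40.6 CPM with melittin. Both groups were tight and well apart, with a log2 fold change of −0.66 (SE 0.0497, 95% interval −0.77 to −0.56, edgeR adjusted p = 1.99e-12). Against a fold change of 1.5 it did not pass (edgeR adjusted p = 0.0616). The ratio of SYK to FCER1G in FPKM, which needs no scaling between libraries, was 0.0331, 0.0333 and 0.0329 in NC and 0.0205, 0.0194 and 0.0187 with melittin. It was 1.69-fold lower with melittin, with no overlap (exact two-sided permutation p = 0.1, the smallest possible). SYK (5210 bases) is longer than FCER1G (964 bases), so the ratio is open to the trend on gene length. With that trend removed, the log2 fold changes were −0.65 for SYK and −0.26 for FCER1G, closer together than in the main fit. The ratio itself was not tested with the trend removed.

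**Figure D3:**
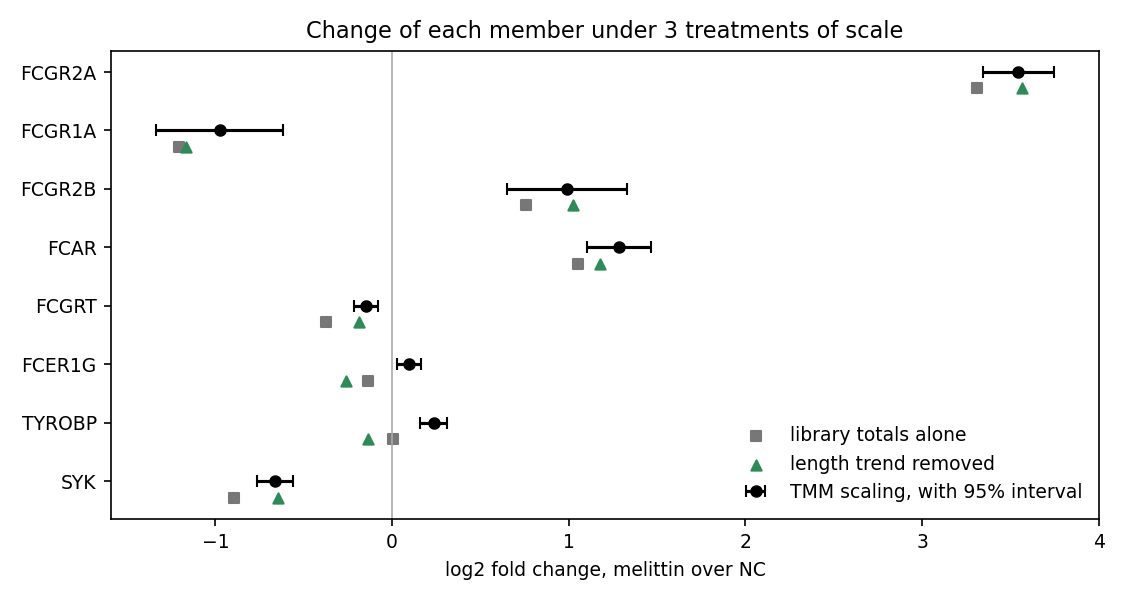
Log2 fold change of melittin over NC for each tested member: black points with 95% intervals for TMM scaling, grey squares for library totals alone and green triangles with the trend on gene length removed. FCGR2A, FCAR, FCGR2B, FCGR1A, FCGRT and SYK keep their side of 0 under all 3, whereas FCER1G and TYROBP do not.

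In FPKM the order of the NC means was FCER1G (406.1), TYROBP (115.9), FCGRT (45.8), SYK (13.4), FCAR (3.64), FCGR1A (3.12), FCGR2A (0.814), FCGR2B (0.499) and FCGR3A (0.00703). FCAR and FCGR1A were neighbours whose libraries overlapped, and the others were apart. With melittin FCGR2A moved past SYK, FCAR and FCGR1A to 8.09 ± 0.691 FPKM, beside FCAR at 7.61 ± 0.551 and SYK at 7.23 ± 0.140 FPKM, and these 3 did not differ beyond the spread of their libraries. In both groups the FPKM of FCER1G was far above those of FCAR, FCGR1A and FCGR3A, the members that signal through it.

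Several members lie in 1 stretch of chromosome 1. Counted from the FCGR2A start, FCER1G starts at −290.2 kb and FCGR2B at 157.7 kb. HSPA6, an inducible heat shock gene that starts 19.1 kb after the FCGR2A start and is the next gene of the table, was at 0.603 ± 0.134 CPM in NC and 5.45 ± 0.261 CPM with melittin. Its log2 fold change was 3.18 (SE 0.238). The Fc receptor-like genes FCRLA and FCRLB beyond FCGR2B rose by 0.65 each. On the other side the nearest genes, CFAP126 and SDHC, had log2 fold changes of 0.18 and −0.06 and did not pass the test (edgeR adjusted p = 0.330 and 0.148). HSPA6, CFAP126 and SDHC were chosen after their values were seen.

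**Figure D4:**
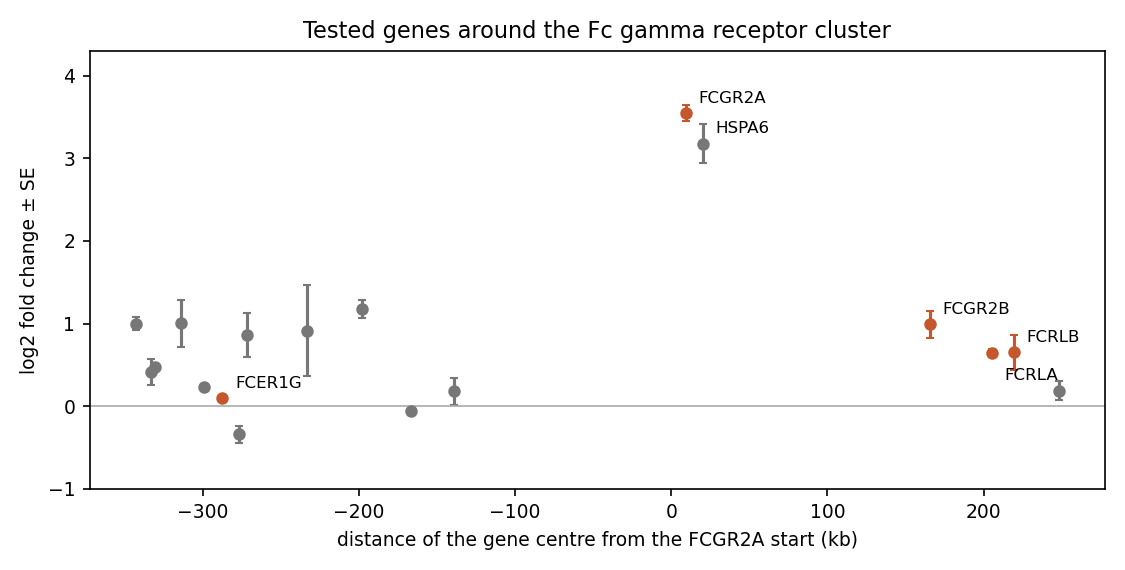
Log2 fold change with SE of each tested gene against the distance of its centre from the FCGR2A start in kb, with Fc receptor genes in orange and others in grey. FCGR2A (3.54) and its neighbour HSPA6 (3.18) stand above the rest of the window, where the other values lie between −0.34 and 1.17.

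Among other genes that bind antibody or resemble Fc receptors, 4 of 8 tested rose and 4 fell, with a median log2 fold change of 0.10 that was −0.13 under plain total scaling. For this list and the pathway lists below, the shares of all tested genes are 38.1% higher and 38.3% lower. Under plain total scaling these shares are 26.3% and 51.9%. The counts called in these lists are not read as results about the lists. FCRLA, an intracellular relative, rose from 46.4 ± 1.12 to 72.7 ± 2.50 CPM, while TRIM21, the cytosolic antibody receptor, fell from 51.4 ± 1.91 to 23.4 ± 0.959 CPM. FCER2, the low-affinity IgE receptor CD23, rose by 1.04 on the log2 scale, and FCRL6 fell by 1.31. PIGR, which carries polymeric antibody across epithelia, fell by 0.38. FCER1A, the IgE-binding chain of mast cells and basophils, was at 0 counts in every library, and the further adaptors HCST (2 counts in each group) and CD247 (1 count in NC, 8, 5 and 6 with melittin) were not tested.

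Receptors that pair with TYROBP or FCER1G went both ways. Of 16 tested, 8 rose and 4 fell (median log2 fold change 0.39), and 6 rose and 6 fell under plain total scaling (median 0.16). TREM1, a TYROBP-coupled amplifier of inflammation, rose from 1.03 ± 0.104 to 11.8 ± 1.43 CPM, and TREM2, a TYROBP-coupled lipid receptor, fell from 45.2 ± 2.60 to 18.8 ± 2.15 CPM. LILRA2 and CD300LB rose by 2.47 and 2.12, and SIGLEC16 and LILRA6 fell by 1.33 and 0.62 on the log2 scale. LILRA6 shares most of its extracellular sequence with LILRB3, so its reads are uncertain.

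**Figure D5:**
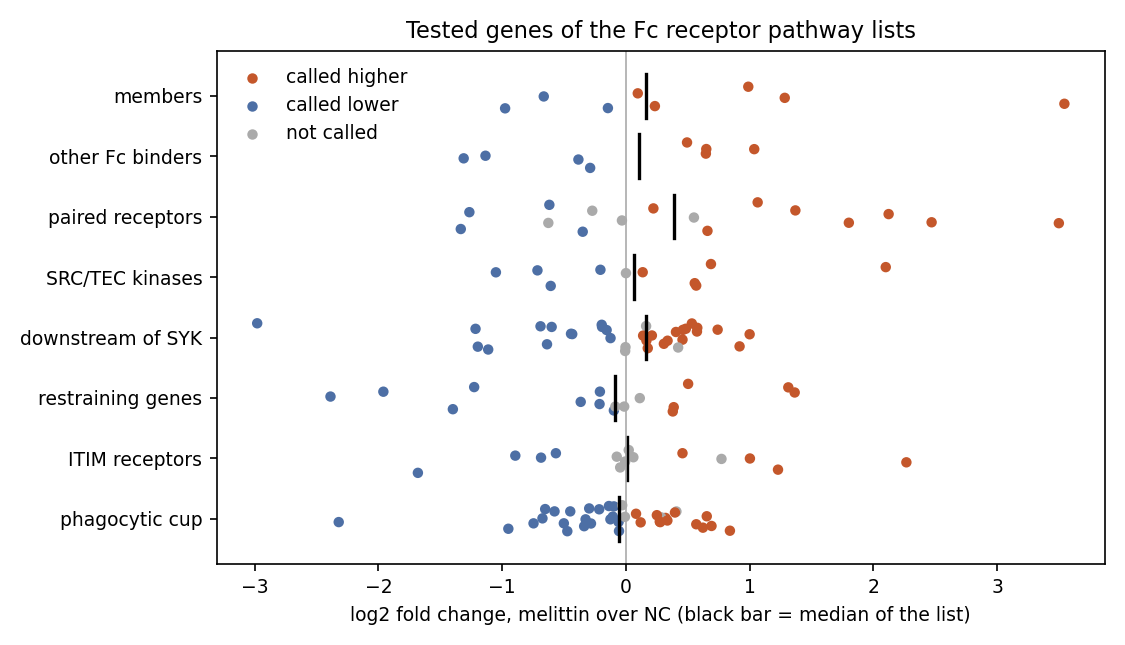
Log2 fold change of the tested genes in each Fc receptor pathway list, 1 point per gene, orange for genes called higher, blue for lower and grey for neither, with the list median as a black bar. Medians lie between −0.09 and 0.39, and every list holds genes on both sides of 0.

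Kinases around SYK split as well. Of 10 tested SRC and TEC family genes with their regulator, 5 rose and 4 fell (median 0.07), and 4 rose and 6 fell under plain total scaling (median −0.16). SRC rose by 0.56 on the log2 scale and TEC by 0.57. FGR, a SRC family kinase of myeloid cells, fell by 0.61, BTK by 0.71, and CSK, the kinase that holds SRC family members inactive, by 1.05, from 112.8 ± 1.77 to 54.5 ± 2.08 CPM.

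Downstream of SYK, 16 of 33 tested genes rose and 13 fell (median 0.16), and 8 rose and 15 fell under plain total scaling (median −0.07). FYB1, an adaptor that links LCP2 to actin and integrins, fell from 28.1 ± 1.87 to 3.56 ± 0.332 CPM, and its partner SKAP2 fell by 1.22 on the log2 scale. PIK3R1, the main regulatory subunit of class I PI3-kinases, fell by 1.20. SH3BP2, which binds SYK, rose by 0.74, and PRKCB by 0.92. MAPK3, which encodes ERK1, rose from 42.6 ± 2.65 to 85.0 ± 3.90 CPM.

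Of 16 tested genes listed as restraints of the pathway, 5 rose and 8 fell (median −0.09). Under plain total scaling 5 rose and 10 fell (median −0.32), and 6 rose and 6 fell once the length trend was removed (median −0.04). UBASH3B, a phosphatase that acts on SYK, fell from 17.3 ± 0.546 to 3.31 ± 1.34 CPM, and the SRC-like adaptor SLA from 24.3 ± 1.71 to 6.30 ± 0.588 CPM. PTPRC, the phosphatase CD45, fell from 221.8 ± 3.57 to 84.1 ± 0.924 CPM. Whether PTPRC restrains or helps the pathway in these cells was not tested, so its fall is not read as a lost restraint. The genes of this list that rose included the docking proteins DOK2, by 1.31 on the log2 scale, and DOK3, by 0.50. INPP5D, the phosphatase that FCGR2B recruits, fell by 0.37, from 107.1 ± 2.83 to 83.2 ± 3.77 CPM. It lies outside the rule for named genes and was chosen after its values were seen.

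Inhibitory ITIM receptors other than FCGR2B went both ways, with 4 of 14 tested higher and 4 lower (median 0.01), and 4 higher and 7 lower under plain total scaling (median −0.22). LILRB1, a receptor for class I molecules, rose by 2.27 on the log2 scale, PILRA from 2.34 ± 0.122 to 4.73 ± 0.959 CPM and LILRB4 by 0.46 on the log2 scale. CD22 fell by 1.68, LILRB3 by 0.89 and LAIR1, a collagen receptor, by 0.69. The reads of LILRB3 are uncertain too, because of the sequence it shares with LILRA6. Of the actin and membrane genes of the phagocytic cup, 13 of 37 rose and 20 fell (median −0.06), and 7 rose and 24 fell under plain total scaling (median −0.29). In the main fit that is 35.1% and 54.1% of the cup genes, beside 38.1% and 38.3% of all tested genes. Once the length trend was removed, 14 cup genes rose and 17 fell (median −0.04), where 4621 and 4487 of all tested genes did. PLD1 rose by 0.84, the adaptor CRKL by 0.69 and the filopodial motor MYO10 by 0.65. PIP5K1A, an enzyme that makes PIP2, fell by 2.32 at a low level, from 3.01 ± 0.652 to 0.615 ± 0.242 CPM. EVL fell by 0.95 and NCKAP1L, the blood cell subunit of the WAVE complex, by 0.75.

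The genes whose values were most like a member's were found by the distance between centred log2 CPM over the 6 libraries, among 11342 named genes with a mean of at least 1 CPM. FCGR2A was closest to CXCL2 (distance 0.305) and PANX2 (0.310), FCAR to PLCD3 (0.126) and RHBDD2 (0.152), and FCGR2B to GPC1 (0.108) and PADI2 (0.134). FCGR1A was closest to PAGR1 (0.209) and UTP15 (0.216), SYK to ARNTL (0.0572) and CEP250 (0.0585), and FCGRT to ARHGAP35 (0.0363) and NOMO1 (0.0395). FCER1G was closest to SMIM15 (0.0388) and YIPF3 (0.0415), and TYROBP to NBAS (0.0223) and ZDHHC8 (0.0486). With 2 groups, such a distance mostly reflects an equal fold change between them.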

How the data were processed

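The members and gene lists were chosen with earlier results of these data known. The submitters' processing notes name GRCh38 as build. Aligner, counting program, strand setting and annotation: not given in the sources used here. Raw read counts of each gene in each library were deposited by the authors. The same table has FPKM, which the authors derived from count, gene length and library total (largest relative deviation 2.23e-09 over values of at least 20 counts). A second deposited table holds the same FPKM values. The reference at hand is mouse, so no sequences are shown, and the gene coordinates were read from the deposited annotation columns.

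Counts were fitted with edgeR 4.0.16 in R 4.3.3: filterByExpr (12029 genes), TMM factors (0.921 to 0.927 in melittin, 1.08 in NC), glmQLFit, glmQLFTest and Benjamini-Hochberg adjustment over all tested genes. An SE is the log2 fold change divided by the square root of F. Alternatives were other scalings, DESeq2 1.42.0, limma 3.58.1 on counts and FPKM, other filters, a test against 1.5-fold, removal of the length trend, a replicate block and leaving out each library. Ratios and shares in FPKM were tested by exact permutation over libraries. Of each pathway list, up to 3 genes higher and 3 lower are named, those with the largest change among called genes whose mean is 1 CPM or more. Some genes that this rule names are not reported here. The fit was tested on simulated data. Replicates differed by more than sampling noise (chi-square per degree of freedom 1.73 to 1.76 in NC and 2.23 to 3.92 with melittin).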

Additional observations from a re-analysis of the deposited data

How the results depend on the processing

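FCGR1A, FCGR2A, FCGR2B and FCAR kept their direction and their call under every alternative run, with log2 fold changes of −1.21 to −0.80, 2.32 to 3.63, 0.30 to 1.07 and 0.89 to 1.36 (2.87 for FCGR2B summed with FCGR2A and FCGR2C). FCGRT (−0.38 to −0.12) and SYK (−0.90 to −0.64) kept theirs except against a fold change of 1.5. FCER1G turned to −0.14 under plain total scaling, −0.037 with library sizes without the 20 most abundant genes, −0.14 on log2(FPKM + 1) and on log2(FPKM + 0.1), and −0.26 with the length trend removed, where TYROBP turned to −0.14. In each of these cases but the library sizes without the 20 most abundant genes, 3 members passed as higher, and 5 passed as lower with the length trend removed. Against a fold change of 1.5, 3 members passed as higher and 1 as lower, and over all genes 1761 and 1734 (4578 and 4612 against no change), a stricter question by construction. In CPM instead of FPKM, which weights long genes more, the share of FCGR2A rose by 17.8 percentage points (13.7 in FPKM) and that of FCGRT fell by 22.7 (18.7 in FPKM). With all genes, 49.8% of calls were higher, and 33.6% under plain total scaling.

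The labels share replicate numbers but do not say that they pair the libraries, and deviations of same-numbered libraries correlated at −0.05, 0.02 and −0.02. With the replicate block 5 members passed as higher and 3 as lower, over all genes 4513 and 4537, and the ratios were the same by construction. Leaving out 1 library gave 4 to 5 members higher and 3 lower. The copies of FCGR1A were not analysed here and FCGR3A summed with FCGR3B was too low to be tested, so these sums were not run. Depth limits FCGR3A, FCGR3B and FCGR2C.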

Other observations

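The deposited annotation marks 96 genes with the pathway term Fc gamma R-mediated phagocytosis, among them FCGR1A, FCGR2A, FCGR2B, FCGR3A and SYK. This list was taken from the table after the data had been seen. Of the 83 tested, 39 rose and 33 fell (47.0% and 39.8%, against 38.1% and 38.3% of all tested genes), with a median log2 fold change of 0.11, and 22 rose and 44 fell under plain total scaling (median −0.12), where 26.3% and 51.9% of all tested genes did. At least 2-fold higher were 6 of the 83, where 9.53% of all tested genes were: FCGR2A, JMJD7-PLA2G4B, NCF1, PLPP2, ACTR3B and MAPK3. NCF1, a cytosolic subunit of the phagocyte oxidase, was at 166.1 CPM in NC and 765.0 CPM with melittin (log2 fold change 2.20, SE 0.0353). It has near-identical pseudogene copies, so its reads are uncertain. At least 2-fold lower were 6 of the 83, where 9.96% of all tested genes were: PIP5K1B, PIP5K1A, PTPRC, PIK3R1, PLCG2 and PIK3R3. PIP5K1B and PIP5K1A, enzymes that make PIP2, fell by 2.66 and 2.32 on the log2 scale, from 1.49 to 0.227 CPM and from 3.01 to 0.615 CPM.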
